A study of Mus musculus with 62 samples.

Results

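Collagen genes were followed in the gastrocnemius, a calf muscle, of mice carrying melanoma cells. All gene symbols made of Col, a type number, the letter a and a chain number were taken, which gave 44 of the 47643 symbols of the deposited table. They comprised 11 fibrillar collagens, the 6 chains of type IV that form the network of basement membranes, and 27 other collagens. The last class held 6 chains of type VI, 9 fibril-associated collagens, 2 multiplexins, 4 transmembrane collagens, 3 short-chain collagens, the anchoring fibril collagen Col7a1 and 2 that fit no class (Col26a1 and Col28a1). The muscles came from female mice. The labels give an age of 2 months for samples of every week, taken here as the age at injection. The CAC mice received melanoma cells that cause cachexia, the wasting of muscle and fat in cancer, the NCAC mice received melanoma cells that do not, and the Con mice were mock injected. Muscles were taken 2, 4, 6 or 8 weeks later. Each group held 5 libraries, except CAC at 8 weeks with 7, which made 62 libraries in 12 groups. The labels call the replicates biological and name no other treatment or allele. The strain is uncertain, since the description of the series names NCI Ath/nude mice and the sample labels name C57BL/6J.

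Collagens are proteins of 3 chains wound into a triple helix. Fibrillar collagens such as types I and III form the ropes of the connective tissue that wraps a muscle and its bundles. Type IV collagen forms the sheet that lies against each muscle fibre, capillary and nerve, and type VI collagen forms beaded filaments between the sheet and the fibrils. In muscle the main makers of fibrillar collagens are fibroblasts and tendon cells, and type IV is also made by endothelium and muscle fibres.

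The values were in TPM, a unit that scales for gene length and for the total of the library, so that levels of different genes can be compared. The depth estimated from the smallest steps of the values was 39.58 to 48.35 M (mega) reads per library. The gene markers of muscle fibres (Ckm, Acta1, Myh4, Mylpf, Tnnt3 and Pvalb) summed to between 87054 and 161912 TPM in every library, and those of melanocytes (Pmel, Tyr, Mlana and Dct) to at most 1.48 TPM. In bulk muscle, fewer cells of a type and less RNA per cell cannot be told apart. A pair of libraries stood apart at 8 weeks. In CAC replicate 6, Col1a1 was 3.87 TPM and the fibrillar collagens summed to 29.7 TPM, and in NCAC replicate 3 these values were 2.83 and 23.0 TPM. In 4 libraries, CAC at 2 weeks replicates 3 and 4, CAC at 6 weeks replicate 1 and Con at 6 weeks replicate 1, the keratinocyte markers (Krt5, Krt14, Krt1, Krt10 and Dsg3) summed to 292, 97.2, 54.1 and 778 TPM, against a median of 2.10 TPM over all libraries.

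Of the 44 collagens, 28 passed the filter of at least 1 TPM in at least 5 libraries and were tested, among them 9 fibrillar, 3 basement membrane and 16 other collagens. The highest median levels over the 62 libraries belonged to Col1a1 (40.0 TPM), Col4a1 (39.0 TPM), Col3a1 (38.0 TPM), Col1a2 (36.3 TPM), Col6a1 (32.1 TPM) and Col4a2 (32.0 TPM). These are chains of types I, III, IV and VI. Col6a2 (16.3 TPM) and the multiplexin Col15a1 (10.9 TPM) were the only others with a median of at least 10 TPM. The other 16 collagens were not tested. Of these, 13 stayed under 1 TPM in all libraries. They included the cartilage collagen Col2a1, the chains Col4a3, Col4a4 and Col4a6 of other type IV networks, and Col13a1, a transmembrane collagen of the neuromuscular junction. Col13a1 had a median of 0.475 TPM over the libraries. Col27a1 reached 1.38 TPM in 1 library and Col6a5 1.42 TPM. Col17a1, the hemidesmosome collagen of epidermis, had a median of 0.350 TPM, and it exceeded 1 TPM in 4 libraries. These were CAC at 2 weeks replicates 3 and 4 with 5.53 and 2.00 TPM, CAC at 6 weeks replicate 1 with 1.32 TPM and Con at 6 weeks replicate 1 with 11.2 TPM, the libraries with keratinocyte markers.

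The abundant fibrillar chains Col1a1, Col1a2 and Col3a1 were not called between CAC and Con at any week, and their CAC and Con values overlapped throughout. Col1a1, the main chain of type I collagen, had 32.5, 59.6, 104.3, 139.9 and 141.0 TPM in CAC at 2 weeks and 26.4, 37.5, 65.0, 78.0 and 193.7 TPM in Con. At 8 weeks it had a lowest value of 3.87, a median of 32.3 and a highest of 46.9 TPM in the 7 CAC libraries, against 16.2, 26.8, 27.1, 28.7 and 40.7 TPM in Con. The low library of CAC lay below every Con library, and the other 6 lay within the range of Con except for the highest. The log2 difference of Col1a1 at 8 weeks was -0.05 ± 0.49 (SE; limma adjusted p = 0.928). Changes are differences of log2(TPM + 1), which understate the change of low genes, and p was adjusted over all 12364 genes tested.

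Col1a2, the partner chain of type I collagen, differed by 0.06 ± 0.41 at 8 weeks (adjusted p = 0.904). Col3a1, the chain of the thinner type III fibrils, averaged 48.4 ± 29.7 TPM in CAC, against 38.9 ± 17.6 TPM in Con, at 8 weeks (SD, n = 7 and 5), a difference of 0.06 ± 0.48 (adjusted p = 0.916). At 2 weeks Col3a1 had 33.2, 64.3, 79.4, 83.8 and 216.1 TPM in CAC, against 31.3, 36.0, 38.7, 47.2 and 50.4 TPM in Con. Of the CAC libraries 4 of 5 lay above all Con libraries, and the difference of 0.96 ± 0.51 did not pass (adjusted p = 0.402). The highest of them, replicate 4, also had the highest tenocyte marker sum of all libraries (762 TPM for 8 genes) and a macrophage marker sum of 445 TPM; their part in the result was not tested. Col5a1 and Col5a2, which set the diameter of type I fibrils, differed by -0.31 ± 0.27 and 0.28 ± 0.24 at 8 weeks (adjusted p = 0.298 and 0.293). After median-ratio scaling, described with the type IV chains, Col5a1 was lower in CAC, with a change of -0.67 (adjusted p = 0.0340). The annotation places exons of Gm47302 on those of Col3a1 on the same strand, so that reads there could count for either.

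**Figure D1:**
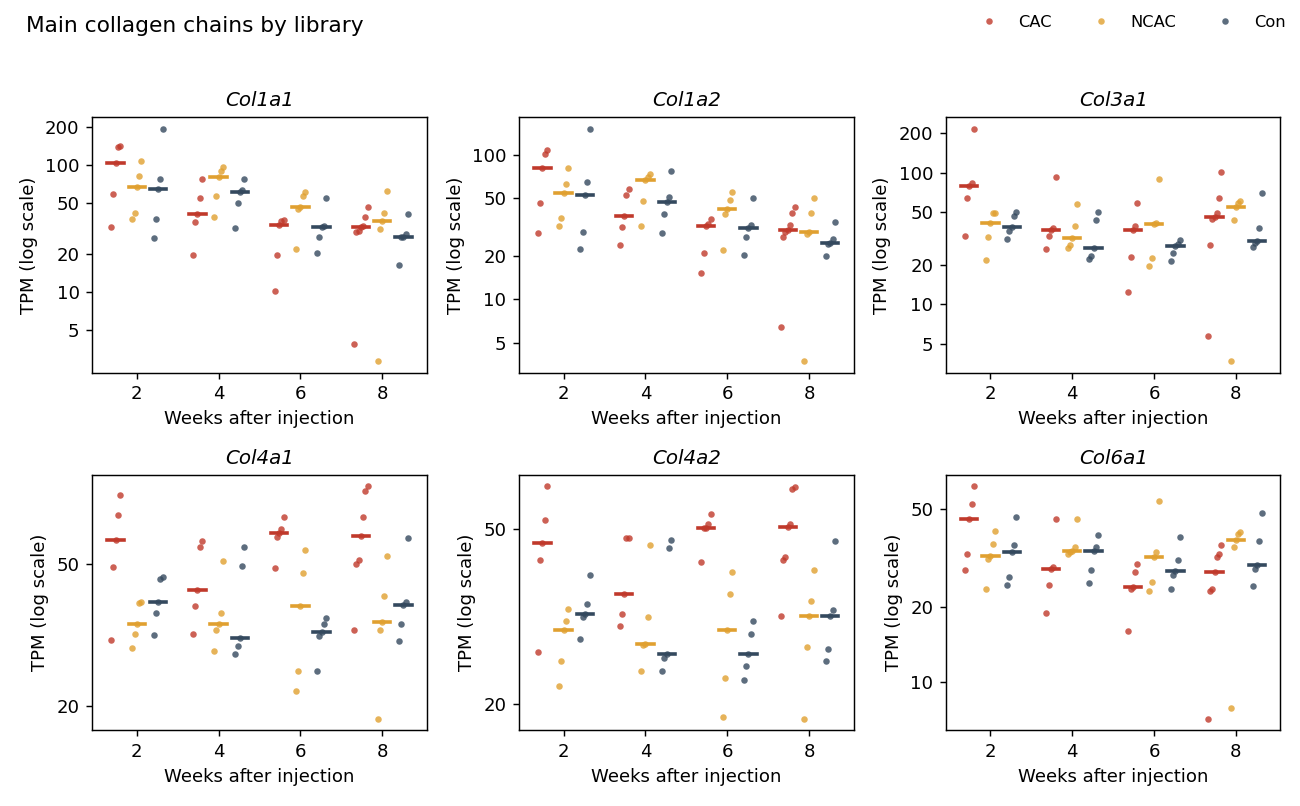
TPM on a log axis of 6 abundant collagens by week, with CAC, NCAC and Con from left to right within a week; each point is a library and each bar is the median of a group. The type I and III chains of the groups overlap at every week, with 1 CAC and 1 NCAC library far below the rest at 8 weeks, while Col4a1 and Col4a2 lie higher in all 5 CAC libraries than in all 5 Con libraries at 6 weeks.

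The fibrillar collagens that were called were minor ones, and they were lower in CAC. Col11a2, a chain of the cartilage collagen type XI, had 1.06, 1.59, 2.38, 2.62 and 3.11 TPM in CAC at 6 weeks, against 3.03, 3.18, 4.15, 4.15 and 5.90 TPM in Con. The groups overlapped by 1 library on each side, and Col11a2 fell by 0.70 ± 0.23 (adjusted p = 0.00906). It had also fallen at 4 weeks, by 0.75 ± 0.23 (adjusted p = 0.0163), and the difference at 8 weeks was -0.46 ± 0.21 (adjusted p = 0.0521). The call at 4 weeks was lost without CAC replicate 2 and without Con replicate 5, and the call at 6 weeks without CAC replicate 1. Col24a1, a short fibrillar collagen known from bone, had 0.328, 0.405, 0.537, 0.918 and 1.02 TPM in CAC at 6 weeks, against 0.839, 0.886, 1.57, 2.49 and 2.92 TPM in Con. It fell by 0.69 ± 0.17 (adjusted p = 0.000683). At 8 weeks the lowest, median and highest values of Col24a1 were 0.285, 0.519 and 0.932 TPM in CAC, against 0.868, 0.899, 1.05, 1.15 and 1.37 TPM in Con. It fell by 0.39 ± 0.15 (adjusted p = 0.0234), a call lost without CAC replicate 6 or without Con replicate 3.

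The basement membrane chains Col4a1 and Col4a2, which join in the type IV collagen of nearly all basement membranes, rose in CAC at 6 and 8 weeks. Their genes lie head to head on mouse chromosome 8, Col4a1 at chr8:11198423-11312826 on the minus strand and Col4a2 at chr8:11312805-11449287 on the plus strand (GENCODE annotation of GRCm38, the assembly called mm10), so that the gene bodies share 22 bases. The RefSeq promoter windows of 250 bases before and 50 after each start are printed because the data bear on a pair of genes that moved together; capitals mark the 78 bases that both windows hold (chr8:11312777-11312854), on opposite strands.
Col4a1, chr8:11312777-11313076, minus strand: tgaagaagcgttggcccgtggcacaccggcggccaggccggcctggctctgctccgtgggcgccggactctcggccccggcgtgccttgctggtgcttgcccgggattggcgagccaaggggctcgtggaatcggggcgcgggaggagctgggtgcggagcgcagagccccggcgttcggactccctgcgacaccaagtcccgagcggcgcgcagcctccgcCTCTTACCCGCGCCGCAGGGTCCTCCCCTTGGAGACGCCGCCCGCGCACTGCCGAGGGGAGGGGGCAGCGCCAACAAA
Col4a2, chr8:11312555-11312854, plus strand: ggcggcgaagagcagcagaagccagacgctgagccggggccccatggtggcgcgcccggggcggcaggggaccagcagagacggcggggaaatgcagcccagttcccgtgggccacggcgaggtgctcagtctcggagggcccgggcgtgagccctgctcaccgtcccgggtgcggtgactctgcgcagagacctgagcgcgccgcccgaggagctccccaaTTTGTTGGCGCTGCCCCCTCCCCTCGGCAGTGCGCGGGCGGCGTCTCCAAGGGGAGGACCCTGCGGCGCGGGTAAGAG
Promoter windows were found for 35 of the 44 collagens. The GC box GGGCGG, searched on both strands, is in both of these windows, in 62.9% of the 35 and in 35.7% of all 32851 windows of that length. The box CCAAT, also searched on both strands, is in both windows, in 34.3% of the 35 and in 37.4% of all. The string TATAAA is in neither, in 14.3% of the 35 and in 13.6% of all. A match describes these letters and does not show a site that is used.

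At 6 weeks Col4a1 had 48.5, 59.4, 60.8, 62.5 and 67.7 TPM in CAC, against 22.0, 25.1, 38.2, 47.1 and 54.6 TPM in NCAC and 25.2, 31.5, 32.2, 34.0 and 35.2 TPM in Con. All CAC libraries lay above all Con libraries. Col4a1 rose by 0.90 ± 0.24 against Con (adjusted p = 0.00159) and by 0.74 ± 0.24 against NCAC (adjusted p = 0.00577). Col4a2 had 42.1, 50.3, 50.3, 51.5 and 54.2 TPM in CAC, against 18.7, 22.9, 29.5, 35.6 and 39.9 TPM in NCAC and 22.6, 24.3, 26.0, 28.8 and 30.9 TPM in Con. Its CAC libraries lay above all libraries of both other groups, and it rose by 0.88 ± 0.21 against Con (adjusted p = 0.000555) and by 0.79 ± 0.21 against NCAC (adjusted p = 0.000963).

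At 8 weeks the lowest, median and highest values of Col4a1 were 32.6, 59.9 and 82.2 TPM in CAC, against 18.5, 32.6, 34.4, 40.7 and 52.7 TPM in NCAC and 30.4, 34.0, 38.4, 39.0 and 59.0 TPM in Con. The groups overlapped, and Col4a1 rose by 0.56 ± 0.22 against Con (adjusted p = 0.0213) and by 0.76 ± 0.22 against NCAC (adjusted p = 0.00204). The call against Con was lost without CAC replicate 4 or 7 and without Con replicate 4 or 5. Col4a2 rose by 0.58 ± 0.19 against Con (adjusted p = 0.00708) and kept its call without any library of the comparison. The ratio of Col4a1 to Col4a2 within a library had a median of 1.19 and ran from 1.00 to 1.37 over all 62 libraries. At 2 and 4 weeks neither chain was called: Col4a1 differed by 0.45 ± 0.24 against Con at 2 weeks (adjusted p = 0.394). Whether the difference of CAC from Con changed between the weeks was tested directly by an F test, which gave adjusted p = 0.435 for Col4a1 and 0.325 for Col4a2. Col4a5, the third type IV chain tested, differed by -0.07 ± 0.11 at 6 weeks and -0.05 ± 0.11 at 8 weeks (adjusted p = 0.605 and 0.656).

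These rises depend on the scale. In CAC at 6 and 8 weeks most genes stood higher in TPM, while genes of mitochondrial DNA held less of the total, with a median of 25.0% in CAC, against 37.0% in NCAC and 32.1% in Con at 6 weeks, and of 23.3% in CAC, against 33.2% in NCAC and 34.2% in Con at 8 weeks. The median log2 change of all genes between CAC and Con was 0.28 at 6 weeks and 0.36 at 8 weeks. Median-ratio scaling, which sets the typical gene to no change, lowers the log2 change of a typical gene by 0.29 at 6 weeks and 0.37 at 8 weeks. On that scale Col4a1 and Col4a2 still rose against Con at 6 weeks, by 0.58 and 0.56 (adjusted p = 0.0294 and 0.0162). Their differences from Con at 8 weeks were 0.15 and 0.17 (adjusted p = 0.545 and 0.424), and those from NCAC were 0.30 and 0.35 at 6 weeks (adjusted p = 0.253 and 0.119) and 0.33 and 0.26 at 8 weeks (adjusted p = 0.157 and 0.208), so that these calls were lost. The sum of endothelial markers (Pecam1, Cdh5, Kdr, Tek, Emcn, Egfl7 and Flt1) stood higher in CAC as deposited. It ran from 136 to 212 TPM in CAC and from 110 to 130 TPM in Con at 6 weeks. At 8 weeks it ran from 145 to 248 TPM in CAC and from 87.8 to 129 TPM in Con. Of the 7, 5 rose and 1 fell against Con at 6 weeks, where 51.8% of all genes were called higher and 5.41% lower. After rescaling 1 rose and 1 fell at 6 weeks, where 14.4% and 17.2% of all genes were. At 8 weeks 6 rose and 1 fell, where 65.3% and 5.55% of all genes were. After rescaling 4 rose and 1 fell at 8 weeks, where 22.9% and 22.3% of all genes were. The sum of 7 markers of smooth muscle and pericytes (Myh11, Acta2, Cnn1, Rgs5, Pdgfrb, Cspg4 and Tagln) also stood higher at 6 and 8 weeks. It ran from 224 to 393 TPM in CAC and from 167 to 218 TPM in Con at 6 weeks, without overlap. At 8 weeks it ran from 204 to 452 TPM in CAC and from 137 to 208 TPM in Con. Of the 7, 3 rose and 0 fell at 6 weeks, where 51.8% of all genes were called higher, and after rescaling 1 rose. At 4 weeks 0 rose and 3 fell, where 23% of all genes were called higher and 2.38% lower. After rescaling 0 rose and 4 fell at 4 weeks, where 7.43% and 7.8% of all genes were. Of these 7, 5 rose and 0 fell at 8 weeks, a share of rises near that of all genes, and after rescaling 1 rose. The part of these cell types in the rise of the type IV chains was not tested.

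A fibril-associated collagen, Col22a1, showed the clearest fall. Col22a1 protein sits at tissue junctions, among them the site where muscle fibres meet tendon. At 2 weeks its levels were 4.07, 4.86, 4.89, 6.61 and 7.21 TPM in CAC, against 5.14, 5.63, 6.08, 6.42 and 6.64 TPM in Con. At 4 weeks Col22a1 had 2.39, 4.23, 4.34, 4.56 and 5.99 TPM in CAC, against 4.71, 5.74, 6.16, 6.88 and 7.34 TPM in Con. The groups overlapped at both weeks. At 6 weeks Col22a1 had 1.20, 2.50, 2.74, 2.95 and 3.03 TPM in CAC, against 4.67, 5.09, 6.64, 6.79 and 7.64 TPM in NCAC and 4.25, 5.22, 5.38, 5.68 and 6.01 TPM in Con. At 8 weeks its lowest, median and highest values were 1.16, 2.55 and 3.75 TPM in CAC, against 2.71, 5.67, 5.71, 5.80 and 7.20 TPM in NCAC and 4.92, 5.16, 5.25, 5.61 and 6.65 TPM in Con. From 6 weeks all CAC libraries lay below all Con libraries, and NCAC reached the CAC range in 1 library, replicate 3 at 8 weeks.

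Against Con, Col22a1 fell by 0.46 ± 0.18 at 4 weeks (adjusted p = 0.0484), by 0.88 ± 0.18 at 6 weeks (adjusted p = 0.000105) and by 0.99 ± 0.16 at 8 weeks (adjusted p = 1.75e-06). The difference at 2 weeks was -0.12 ± 0.18 (adjusted p = 0.782). The call at 4 weeks was lost without any of 7 of the 10 libraries (CAC replicates 2, 3 and 4, and Con replicates 1, 2, 3 and 5), while those at 6 and 8 weeks held without each library in turn. Against NCAC, Col22a1 fell by 1.05 ± 0.18 at 6 weeks (adjusted p = 2.56e-06) and by 0.92 ± 0.16 at 8 weeks (adjusted p = 4.56e-06). After median-ratio scaling Col22a1 still fell against Con, by 1.10 at 6 weeks and 1.27 at 8 weeks (adjusted p = 2.38e-05 and 1.18e-07). Col22a1 was the only collagen for which the F test called a change of the CAC minus Con difference between the weeks (adjusted p = 0.0331), where 12.1% of all genes were called. That call was lost without a filter on low values (adjusted p = 0.0607), with only the groups compared (adjusted p = 0.0718), and without any of CAC replicates 1 and 5 and Con replicate 2 at 2 weeks, and CAC replicate 4 and Con replicates 3 and 4 at 8 weeks, with adjusted p from 0.00896 to 0.0819 over the single libraries left out. The tenocyte marker sum (Scx, Tnmd, Mkx, Thbs4, Fmod, Comp, Chad and Kera) ran from 80.8 to 224 TPM in CAC and from 78.1 to 153 TPM in Con at 8 weeks, with medians of 157 TPM in CAC and 119 TPM in Con. At 6 weeks its medians were 176 TPM in CAC, 224 TPM in NCAC and 204 TPM in Con, with ranges that overlapped. Of the 8 markers 1 fell and 0 rose against Con, where 5.41% of all genes were called lower and 51.8% higher. Against NCAC 3 fell and 1 rose, where 4.64% of all genes were called lower and 64.1% higher. The muscle fibre markers summed to a median of 116308 TPM in CAC and 137862 TPM in Con at 8 weeks. Of these 6 markers 3 fell, where 5.55% of all genes were called lower. The part of these markers in the fall of Col22a1 was not tested. Exons of the antisense gene Gm16308 overlap those of Col22a1, and whether reads were counted by strand is not given in the sources used here.

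**Figure D2:**
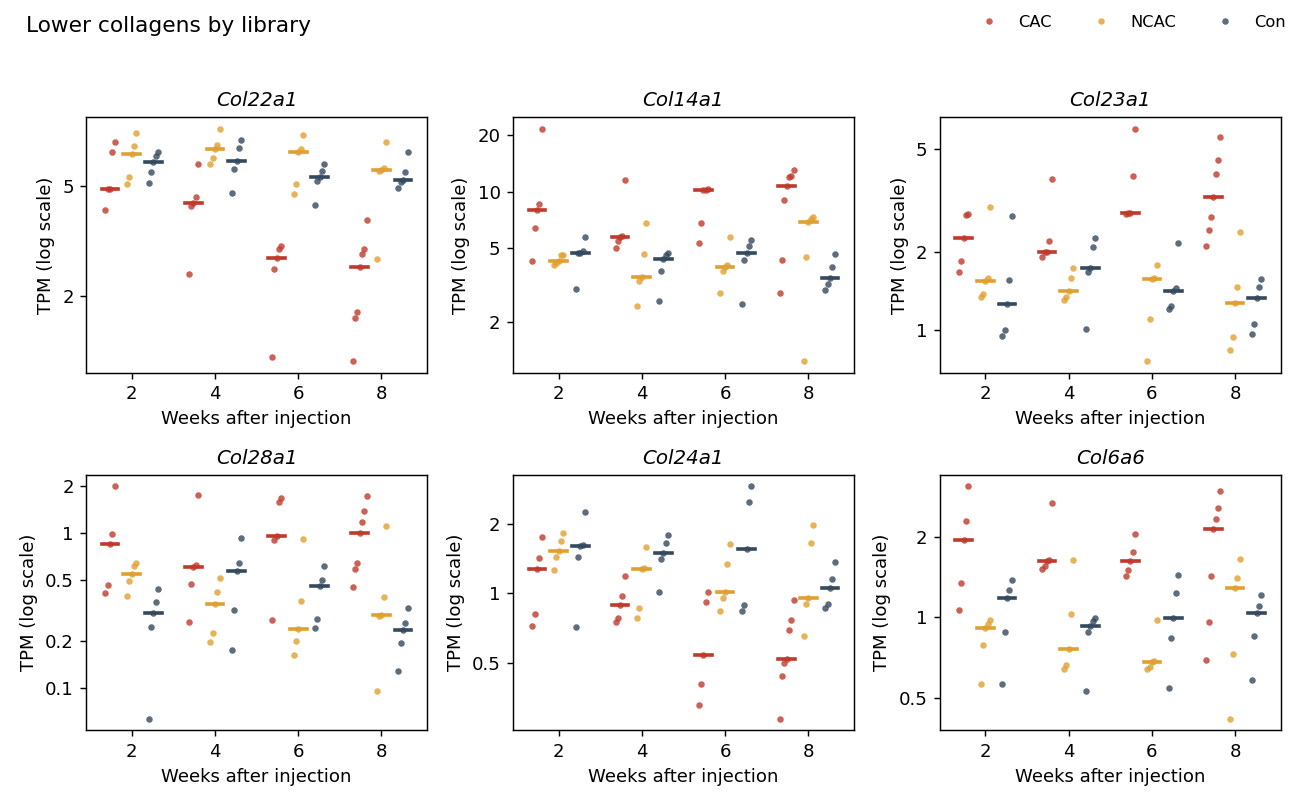
TPM on a log axis of 6 collagens of lower level by week, with CAC, NCAC and Con from left to right within a week; each point is a library and each bar is the median of a group. Col22a1 lies lower in CAC from 6 weeks, and Col23a1 lies higher in all CAC libraries than in all Con libraries at 6 and 8 weeks.

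Other low collagens rose. Col14a1, a fibril-associated collagen of fibroblasts that binds type I fibrils, had lowest, median and highest values of 2.87, 10.6 and 13.1 TPM in CAC at 8 weeks, against 1.23, 4.48, 6.88, 7.09 and 7.27 TPM in NCAC and 2.95, 3.17, 3.44, 3.92 and 4.64 TPM in Con. In CAC 5 of 7 libraries lay above all of NCAC and Con, and replicate 6, the library of low Col1a1, was the lowest. Col14a1 rose by 1.01 ± 0.28 against Con (adjusted p = 0.00138), and by 0.66 on the rescaled values (adjusted p = 0.0466). It rose by 0.68 ± 0.28 against NCAC (adjusted p = 0.0275), a call lost without any of CAC replicates 2, 4, 5 and 7 and NCAC replicate 3, and after rescaling (adjusted p = 0.375). At 6 weeks it rose by 0.81 ± 0.30 against Con (adjusted p = 0.0198), a call lost without Con replicate 4 and after rescaling (adjusted p = 0.170). Col14a1 is a fibroblast product, and the fibroblast marker sum (Pdgfra, Ly6a, Cd34, Pi16, Mfap5, Clec3b, Dpt, Gsn and Lum) stood at 1154 to 1745 TPM in CAC, against 512 to 1178 TPM in NCAC and 785 to 1278 TPM in Con at 8 weeks. Of these 9 markers 5 rose against Con and 0 fell, where 65.3% of all genes were called higher. After rescaling 2 of the 9 markers rose and 0 fell, a share of rises near the 22.9% of all genes. Their part in the rise of Col14a1 was not tested.

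Col23a1, a transmembrane collagen, had 2.78, 2.81, 2.82, 3.90 and 5.96 TPM in CAC at 6 weeks, against 0.757, 1.10, 1.56, 1.58 and 1.78 TPM in NCAC and 1.20, 1.23, 1.41, 1.45 and 2.16 TPM in Con. At 8 weeks its lowest, median and highest values were 2.10, 3.24 and 5.53 TPM in CAC, against 0.831, 0.939, 1.26, 1.46 and 2.39 TPM in NCAC and 0.966, 1.05, 1.32, 1.46 and 1.57 TPM in Con. The CAC libraries lay above all Con libraries at both weeks. Col23a1 rose against Con by 0.87 ± 0.19 at 6 weeks (adjusted p = 0.000201) and by 0.95 ± 0.17 at 8 weeks (adjusted p = 7.03e-06). It kept both calls after rescaling, with 0.63 at 6 weeks and 0.65 at 8 weeks (adjusted p = 0.00262 and 0.000441), and without each library in turn.

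Col28a1, a collagen with von Willebrand factor domains that is known from the Schwann cells of peripheral nerves, rested on an estimated median of 43.6 reads per library. Its lowest, median and highest values at 8 weeks were 0.448, 1.01 and 1.72 TPM in CAC, against 0.0953, 0.291, 0.296, 0.386 and 1.10 TPM in NCAC and 0.129, 0.195, 0.238, 0.263 and 0.330 TPM in Con. All CAC libraries lay above all Con libraries. Col28a1 rose by 0.66 ± 0.17 (adjusted p = 0.000678), and by 0.49 after rescaling (adjusted p = 0.00854). It passed the filter mainly through CAC libraries, and no Con library reached 1 TPM (highest 0.931 TPM, at 4 weeks). Its entry into the test thus leaned on the group where it is high. Without a filter the adjusted p at 8 weeks was 0.00124. Its call at 6 weeks was lost without CAC replicate 4 or 5 and after rescaling (adjusted p = 0.0792). Col6a6, a later described chain of type VI, rose against Con at 4, 6 and 8 weeks, by 0.58 ± 0.18, 0.42 ± 0.18 and 0.50 ± 0.16 (adjusted p = 0.0142, 0.0351 and 0.00557). The call at 6 weeks was lost without any of 6 libraries, CAC replicates 1, 2 and 3 and Con replicates 2, 4 and 5. No call of Col6a6 held after rescaling, where its adjusted p against Con was 0.0505 at 4 weeks, 0.296 at 6 weeks and 0.171 at 8 weeks. At 8 weeks the fibril-associated Col16a1 and Col20a1 and the multiplexin Col18a1, the source of endostatin, rose by 0.60 ± 0.19, 0.48 ± 0.15 and 0.45 ± 0.19 (adjusted p = 0.00477, 0.00458 and 0.0308). None of these 3 was called after rescaling, with adjusted p = 0.158, 0.347 and 0.642, and the call of Col18a1 was lost without any of CAC replicates 4, 5 and 7 and Con replicates 3, 4 and 5. Exons of BX649560.1 overlap those of Col20a1 on the same strand. Col12a1, a fibril-associated collagen of tendon and fascia, and Col15a1, a multiplexin of muscle basement membranes, differed by 0.24 ± 0.18 and -0.23 ± 0.27 at 8 weeks (adjusted p = 0.240 and 0.448).

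The common type VI chains did not rise with Col6a6. At 8 weeks the lowest, median and highest values of Col6a1 were 7.07, 28.0 and 35.8 TPM in CAC, against 24.3, 28.7, 29.8, 37.2 and 48.4 TPM in Con. The difference of Col6a1 was -0.44 ± 0.28, that of Col6a2 -0.60 ± 0.31 and that of Col6a3 -0.11 ± 0.26 (adjusted p = 0.150, 0.0793 and 0.722). After rescaling Col6a1 and Col6a2 were lower in CAC, with changes of -0.84 and -0.97 (adjusted p = 0.0131 and 0.00961), and Col6a3 was not called (adjusted p = 0.123).

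Counted over the class, CAC against Con gave 0 called collagens at 2 weeks, where 0.267% of all genes were called higher and 0.0162% lower; 6 of the 28 collagens had an unadjusted p under 0.05, against 13.3% of all genes. At 4 weeks 1 collagen was higher and 2 were lower, where 23% of all genes were higher and 2.38% lower. At 6 weeks 7 were higher and 3 lower, where 51.8% and 5.41% of all genes were. At 8 weeks 9 were higher and 2 lower, where 65.3% and 5.55% of all genes were. The share of collagens called higher at 6 and 8 weeks, 25.0% and 32.1%, lay below the share of all genes. None of the 9 fibrillar collagens was called higher at any week. The median log2 change of the 28 was 0.36, -0.02, -0.02 and 0.05 at 2, 4, 6 and 8 weeks, while that of all genes was 0.09, 0.17, 0.28 and 0.36. After rescaling 0 collagens were called at 2 weeks, where 0.226% of all genes were higher and 0.0647% lower. On that scale 0 collagens were higher and 3 were lower at 4 weeks, 3 were higher and 3 lower at 6 weeks, and 3 higher (Col14a1, Col23a1 and Col28a1) and 7 lower (Col5a1, Col5a3, Col6a1, Col6a2, Col11a2, Col22a1 and Col24a1) at 8 weeks. Among all genes, rescaling gave 7.43% higher and 7.8% lower at 4 weeks, 14.4% and 17.2% at 6 weeks, and 22.9% and 22.3% at 8 weeks. The direction of the called counts thus depends on the scale. On both scales the median change of the 28 lay above that of all genes at 2 weeks and below it from 4 weeks. After rescaling it was 0.27, -0.16, -0.23 and -0.17 at 2, 4, 6 and 8 weeks, against 0.01, 0.01, 0.01 and 0.02 for all genes. No test was made of the class.

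**Figure D3:**
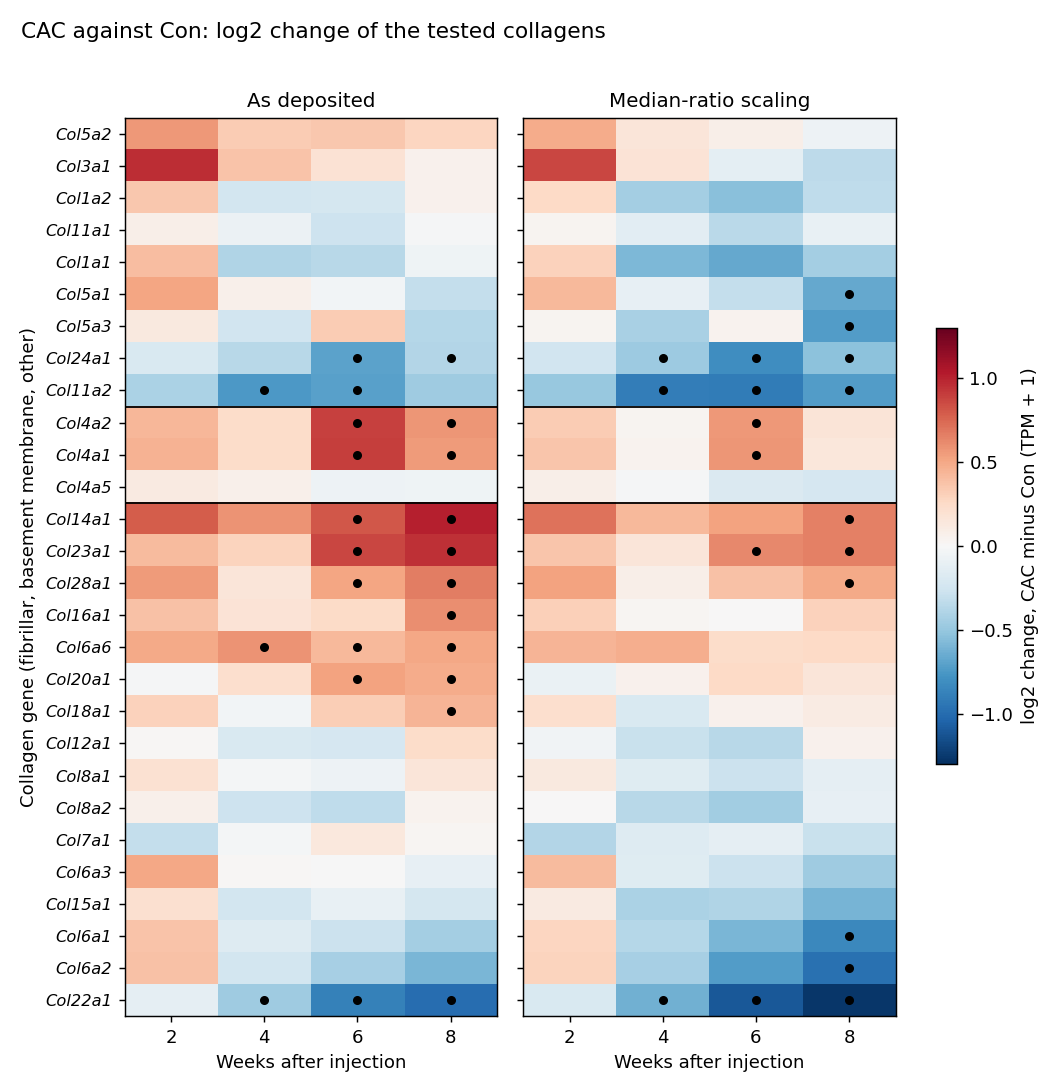
Log2 change of TPM + 1 between CAC and Con for the 28 tested collagens (rows, grouped as fibrillar, basement membrane and other) by week (columns), as deposited on the left and after median-ratio scaling on the right; black dots mark adjusted p under 0.05. Fibrillar collagens hold no called rise on either scale, and Col22a1 is lower from 4 weeks on both.

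Against NCAC, CAC shared the libraries of the comparison with Con. At 2 weeks 1 collagen was called, Col6a6, which was higher in CAC by 0.64 ± 0.18 (adjusted p = 0.0489), where 1.16% of all genes were called higher and 0.0162% lower. That call was lost without any of 8 of the 10 libraries and after rescaling (adjusted p = 0.109), where 0.356% of all genes were higher and 0.0971% lower. At 4 weeks Col6a6 was higher and Col11a2 and Col22a1 were lower, where 18.1% of all genes were higher and 1.59% lower. All 3 of these calls were lost without CAC replicate 2, and that of Col6a6 also without CAC replicate 5 or any of NCAC replicates 1 to 4. At 6 weeks 10 collagens were higher and 3 lower, where 64.1% and 4.64% of all genes were, and at 8 weeks 9 were higher and 3 lower, where 67.5% and 4.8% of all genes were. The 10 at 6 weeks included Col7a1, the anchoring fibril collagen of skin, which was higher by 0.58 ± 0.20 (adjusted p = 0.00900) but lost its call without CAC replicate 4. After rescaling 2 collagens were higher and 5 lower at 6 weeks, where 19.7% and 21.7% of all genes were, and 1 was higher (Col23a1) and 3 lower (Col11a2, Col22a1 and Col24a1) at 8 weeks, where 22.6% and 22.4% of all genes were. At 4 weeks 0 collagens were higher and 2 lower on that scale, where 2.97% and 5.12% of all genes were.

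NCAC against Con gave 0 called collagens at each of the 4 weeks, and the share of all genes called by limma was 0% at each week as well. At an unadjusted p under 0.05, 0, 0, 1 and 0 of the 28 collagens passed at 2, 4, 6 and 8 weeks, against 471, 224, 909 and 139 of all genes. The 1 at 6 weeks was Col7a1, with a difference of -0.45 ± 0.20 (adjusted p = 0.669). Col22a1 averaged 6.17 ± 1.24 TPM in NCAC and 5.31 ± 0.663 TPM in Con at 6 weeks (SD, n = 5 each), a difference of 0.17 ± 0.18, and Col4a1 averaged 37.4 ± 13.9 TPM in NCAC and 31.6 ± 3.88 TPM in Con, a difference of 0.16 ± 0.24 (adjusted p = 0.764 and 0.830). The intervals of these differences are wide, and a p above the threshold does not show that NCAC and Con muscles were alike.

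Summed by class, the fibrillar collagens came to 307 ± 153, 160 ± 67.6, 114 ± 39.2 and 135 ± 61.1 TPM in CAC at 2, 4, 6 and 8 weeks, against 219 ± 128, 170 ± 40.0, 117 ± 27.6 and 124 ± 40.0 TPM in Con (SD, n = 5, and 7 for CAC at 8 weeks). The SD of CAC at 2 weeks exceeds the gap to Con. The basement membrane collagens came to 105 ± 31.8, 85.2 ± 19.9, 111 ± 10.7 and 111 ± 28.7 TPM in CAC, against 74.2 ± 9.90, 73.6 ± 24.5, 59.6 ± 7.20 and 74.2 ± 19.9 TPM in Con. At 6 weeks the lowest CAC library had 92.5 TPM and the highest Con library 67.9 TPM. The other collagens came to 140 ± 41.0, 97.1 ± 26.6, 93.7 ± 13.9 and 100.4 ± 31.3 TPM in CAC, against 106 ± 21.9, 100.6 ± 17.3, 96.5 ± 14.8 and 102 ± 24.3 TPM in Con. Sums over members carry no test.

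A ratio of genes within a library does not depend on how libraries are scaled to each other. The ratio of Col4a1 to Col1a1 had medians of 0.656, 0.928, 1.83 and 2.01 in CAC at 2, 4, 6 and 8 weeks, against 0.477, 0.567, 0.849 and 1.09 in NCAC and 0.581, 0.908, 0.948 and 1.42 in Con. It thus stood higher at 8 than at 2 weeks in each arm, and in CAC at 6 weeks it ran from 1.35 to 6.23, against 0.591 to 1.74 in Con. The ratio of Col3a1 to Col1a1 had medians of 1.02, 0.939, 1.17 and 1.51 in CAC at 2, 4, 6 and 8 weeks, against 0.579, 0.566, 0.924 and 1.31 in NCAC and 0.646, 0.735, 0.932 and 1.32 in Con. Ratios show unequal change of the genes and not which of them changed.

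**Figure D4:**
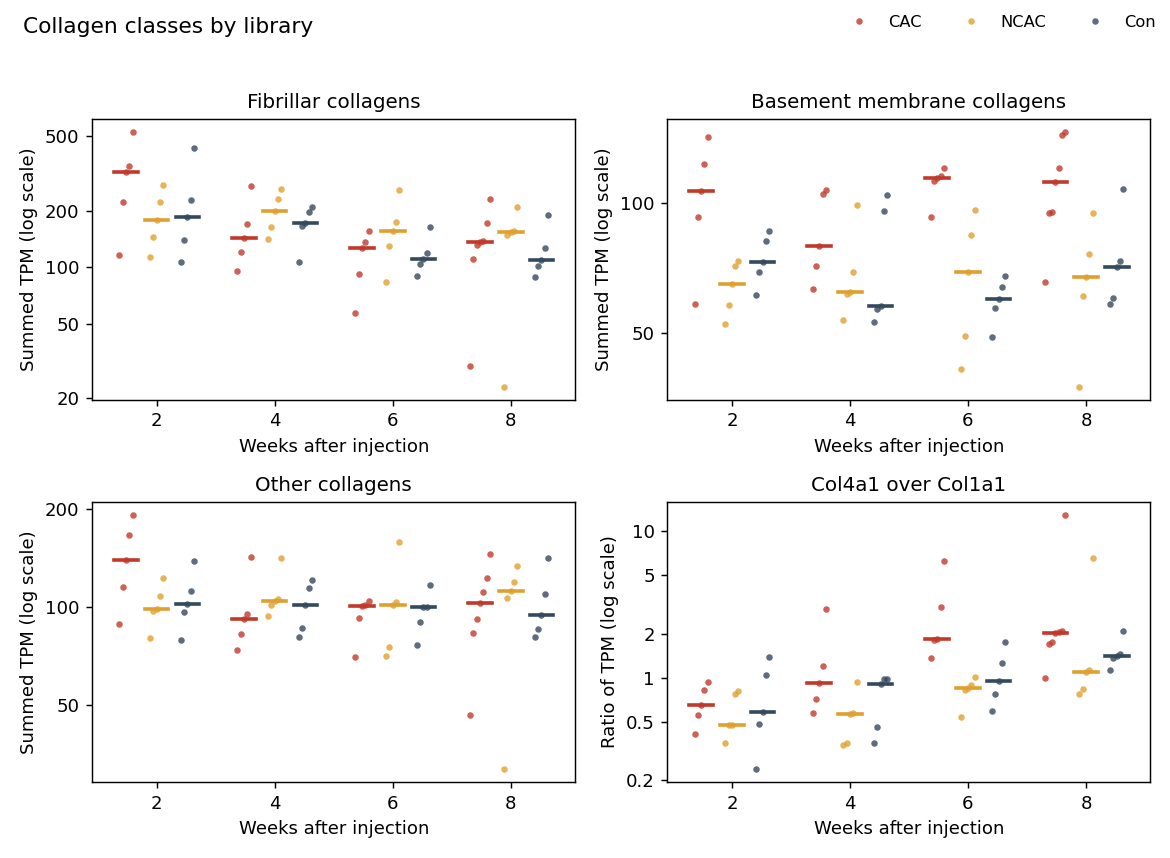
Summed TPM of the fibrillar, basement membrane and other collagens, and the ratio of Col4a1 to Col1a1, in each library by week, all on log axes, with CAC, NCAC and Con from left to right within a week and bars at the group medians. The basement membrane sum of CAC lies above that of Con without overlap at 6 weeks, and the ratio has higher medians at 8 than at 2 weeks in each arm.

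Over time, type I collagen was lower at 8 than at 2 weeks in all 3 arms, and passed the test in CAC. Col1a1 averaged 30.7 ± 13.3 TPM at 8 weeks and 95.5 ± 48.4 TPM at 2 weeks in CAC (SD, n = 7 and 5), and fell by 1.65 ± 0.49 (adjusted p = 0.00329). In NCAC it averaged 35.0 ± 21.6 TPM at 8 weeks and 67.3 ± 29.2 TPM at 2 weeks, and in Con 27.9 ± 8.71 TPM at 8 weeks and 80.1 ± 66.8 TPM at 2 weeks (SD, n = 5 each). The log2 differences of Col1a1 were -1.27 ± 0.52 in NCAC (unadjusted p = 0.0192, adjusted p = 0.693) and -1.20 ± 0.52 in Con (unadjusted p = 0.0262). The F test of whether the CAC minus Con difference of Col1a1 changed between the weeks gave adjusted p = 0.794, so that a fall particular to CAC was not shown. Col1a2 fell by 1.27 ± 0.41 in CAC (adjusted p = 0.00709). Con replicate 5 at 2 weeks, with 193.7 TPM, had the highest Col1a1 of all 62 libraries.

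In CAC 2 collagens, Col20a1 and Col23a1, were higher at 8 than at 2 weeks and 12 were lower, where 57.3% of all genes were called higher and 4.29% lower. The call of Col20a1 was lost without any of CAC replicates 1 and 2 at 2 weeks and 4 and 7 at 8 weeks, and that of Col23a1 without any of CAC replicates 1 and 3 at 2 weeks and 2, 4 and 7 at 8 weeks. The 12 comprised 6 of the 9 fibrillar collagens (Col1a1, Col1a2, Col5a1, Col11a1, Col11a2 and Col24a1), the type VI chains Col6a1, Col6a2 and Col6a3, and Col4a5, Col8a2 and Col22a1. The median change of the 28 was -0.38 and that of all genes 0.28. Col6a2, Col6a1 and Col5a1 fell by 0.83 ± 0.31, 0.81 ± 0.28 and 0.75 ± 0.27 (adjusted p = 0.0181, 0.0113 and 0.0143), and all 3 calls were lost without CAC replicate 6 at 8 weeks, those of Col6a2 and Col5a1 also without CAC replicate 4 at 2 weeks. Col11a1 and Col22a1 fell by 0.70 ± 0.18 and 0.97 ± 0.16 (adjusted p = 0.00131 and 6.09e-06), and kept their calls without each library. After rescaling 0 collagens were higher and 19 lower, where 17.2% and 18.7% of all genes were, and the 19 included all 9 fibrillar collagens. Col4a1 and Col4a2 differed by 0.10 ± 0.22 and 0.11 ± 0.19 as deposited (adjusted p = 0.711 and 0.627). No collagen was called between 8 and 2 weeks in NCAC, where 0.00809% of all genes were called, or in Con, where 0% were. At an unadjusted p under 0.05, 3 of the 28 collagens passed in NCAC and 7 in Con, against 6.33% and 3.23% of all genes. The 7 in Con were lower at 8 weeks and included Col1a1, Col1a2, Col8a2, Col11a1 and Col11a2. With the labelled age taken as the age at injection, mice of later weeks were older at sampling. Age and time after injection then cannot be told apart.

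**Figure D5:**
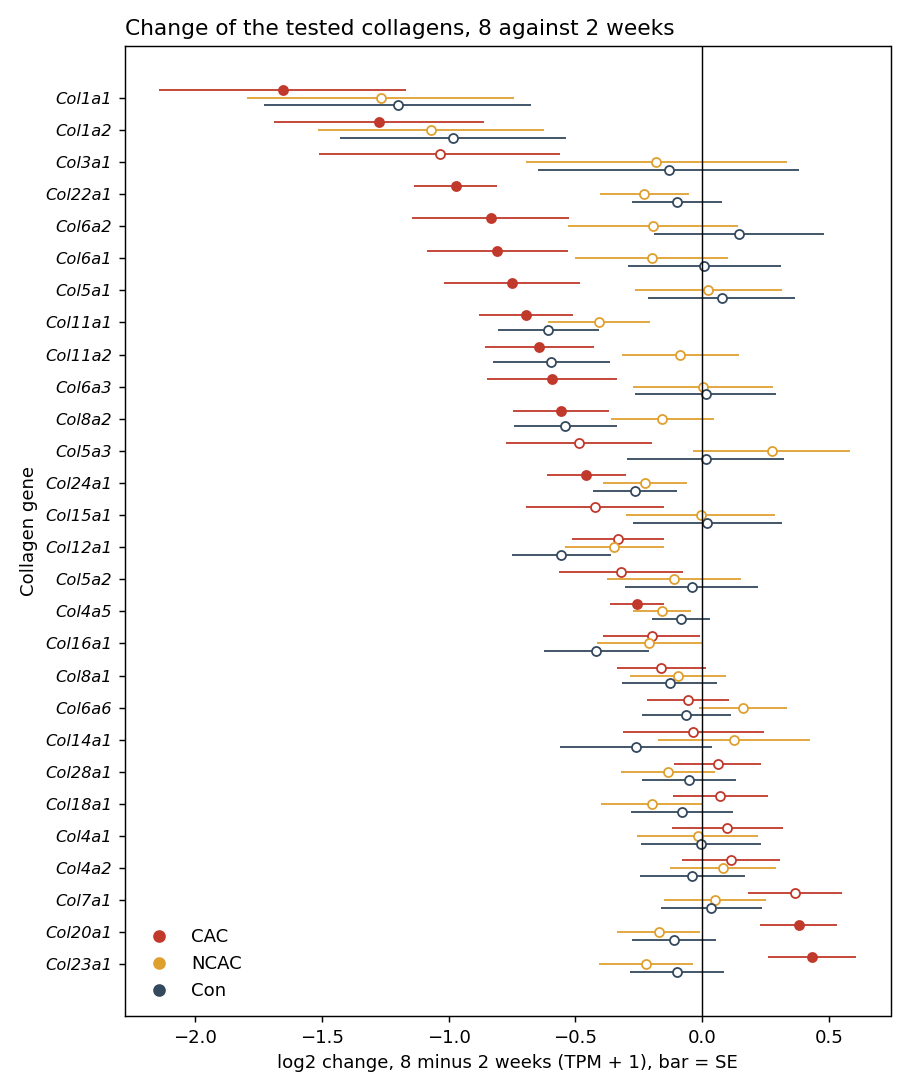
Log2 change of TPM + 1 between 8 and 2 weeks for the 28 tested collagens in CAC (top of each row), NCAC and Con (bottom), with SE as bars; filled points have adjusted p under 0.05. Col1a1 and Col1a2 lie left of 0 in all 3 arms, and Col22a1 lies near -1 in CAC only, at -0.97.

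Genes that make, crosslink and break down collagen were compared with the collagens themselves in CAC against Con at 8 weeks, where the calls over all genes came to 65.3% higher and 5.55% lower as deposited and to 22.9% and 22.3% on the rescaled values. Of 25 tested genes for processing in the endoplasmic reticulum, 19 rose and 0 fell, and after rescaling 5 rose and 2 fell. They included P4hb, a subunit of prolyl hydroxylase, which reached 320 ± 91.4 TPM in CAC, against 152 ± 10.4 TPM in Con (SD, n = 7 and 5; change 1.02 ± 0.14, adjusted p = 6e-08), and Plod3, a lysyl hydroxylase (0.72 ± 0.11, adjusted p = 2.01e-07). Tmem38b, an ion channel of the endoplasmic reticulum, rose by 1.45 ± 0.18 (adjusted p = 5.08e-09). Of 21 genes for procollagen cleavage, fibril assembly and crosslinking, 12 rose and 0 fell, a share of rises below that of all genes, and after rescaling 6 rose and 1 fell. Lox, the lysyl oxidase that crosslinks fibrils, was 17.4 ± 7.81 TPM in CAC and 1.66 ± 0.433 TPM in Con (change 2.63 ± 0.33, adjusted p = 1.24e-08; rescaled 2.26, adjusted p = 6.49e-08). The transglutaminase Tgm2 rose by 1.78 ± 0.18 and the procollagen protease Tll1 by 0.90 ± 0.11 (adjusted p = 2.28e-11 and 9.05e-09).

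Of 9 genes of collagen breakdown and its inhibition, 8 rose and 0 fell, with a median change of 1.04 as deposited. After rescaling 5 rose and 0 fell. The tested members were the proteases Mmp2, Mmp3, Mmp14, Ctsk and Fap and the protease inhibitors Timp1, Timp2, Timp3 and Timp4. The counts thus do not measure breakdown alone. Mmp3, a matrix protease, was 23.5 ± 20.9 TPM in CAC and 0.778 ± 0.441 TPM in Con (change 3.26 ± 0.47, adjusted p = 1.32e-07). Mmp14, a membrane collagenase, rose by 1.55 ± 0.24, and the type IV collagenase Mmp2 by 0.88 ± 0.19 (adjusted p = 5.95e-07 and 7.39e-05). Of 13 other basement membrane genes 9 rose and 1 fell, and after rescaling 2 rose and 2 fell; the laminin chains Lama5 and Lamc1 rose by 0.78 ± 0.13 and 0.49 ± 0.12, and the peroxidase Pxdn, which crosslinks type IV collagen, by 0.80 ± 0.15 (adjusted p = 2.05e-06, 0.000346 and 1.76e-05). Of 6 collagen receptor genes 4 rose and 0 fell, and after rescaling 2 rose and 0 fell; they included Ddr2, Itgb1 and Itga11, with changes of 0.83 ± 0.15, 0.44 ± 0.09 and 0.75 ± 0.17 (adjusted p = 5.69e-06, 2.33e-05 and 0.000159). Of 16 genes of TGF-beta signalling 11 rose and 1 fell, and after rescaling 5 rose and 2 fell; the receptors Tgfbr3 and Tgfbr2 rose by 1.38 ± 0.16 and 1.51 ± 0.18, and Smad4 by 0.73 ± 0.13 (adjusted p = 2.82e-09, 3.53e-09 and 6.48e-06). As deposited, the shares of these basement membrane, receptor and TGF-beta lists that rose were close to the 65.3% of all genes, and no list was tested as a set. The changes of named genes in these 3 lists are as deposited, where the median log2 change of all genes was 0.36. Fewer basement membrane and receptor genes rose after rescaling than are named here, so that not all of those named rises held. Macrophage markers (Adgre1, Cd68, C1qa, C1qb, C1qc, Csf1r and Mrc1), cells that also make matrix proteases, summed to 154 to 550 TPM in CAC and 46.2 to 173 TPM in Con at 8 weeks, and 7 of the 7 rose, 5 of them after rescaling; their part in the rise of these lists was not tested.

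Single libraries changed the counts. Without NCAC replicate 3, a library of low Col1a1, 4 collagens were higher and 5 lower in CAC against NCAC at 8 weeks, against 9 and 3 with all libraries, and the calls of Col6a6, Col14a1, Col16a1, Col18a1 and Col28a1 were lost. Without CAC replicate 6, the other such library, 7 collagens were lower in CAC at 8 against 2 weeks, against 12 with all libraries, and Col4a5, Col5a1, Col6a1, Col6a2 and Col6a3 lost their calls. In the same comparison 7 were also lower without CAC replicate 4 at 2 weeks, and 0 were higher without CAC replicate 1 at 2 weeks or CAC replicate 4 or 7 at 8 weeks. In CAC against Con at 8 weeks, where 2 were lower with all libraries, 4 were lower without CAC replicate 3 and 1 without CAC replicate 6 or Con replicate 3. With both libraries of low Col1a1 left out together, 10 collagens were higher and 1 lower in CAC against Con at 8 weeks, 8 higher and 2 lower in CAC against NCAC, and 2 higher and 11 lower in CAC at 8 against 2 weeks. Of the 11 calls in CAC against Con at 8 weeks, 8 held without each library in turn, and the other 3 were Col4a1, Col18a1 and Col24a1. Against NCAC 9 of 13 calls at 6 weeks and 6 of 12 at 8 weeks held in this way. Of the 14 calls in CAC at 8 against 2 weeks, 5 held, which were Col1a1, Col1a2, Col11a1, Col11a2 and Col22a1.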

How the data were processed

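RNA of gastrocnemius muscle from 62 female mice was sequenced as stranded mRNA libraries on a NovaSeq instrument, per the labels' protocols. The authors deposited TPM values for 47643 symbols, and their processing notes name the build mm10. The sources used here name no aligner, counter or annotation. Groups were taken from the sample descriptions, which matched the titles; a treatment tag naming cachectic cells for every sample was not used. Symbols with at least 1 TPM in at least 5 libraries (12364) were taken as log2(TPM + 1). A single limma 3.58.1 model (R 4.3.3) of 12 group means with a variance trend was fitted, with two-sided tests. Benjamini-Hochberg adjustment ran over the 12364 genes, and the threshold was 0.05. The 15 comparisons and 2 F tests shared libraries. SE is the moderated one of limma.

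Depth was estimated from exon lengths of 45090 matched symbols; 78.0% to 79.6% of values of 1 to 20 reads lay within 0.02 of a whole number, and these figures cover counting error only. The method was tested on simulated data with few changed genes and no shift of all genes. That test does not cover the shift seen in CAC. Replicate numbers were not used to pair mice. Genes named are fixed main chains and up to 8 called collagens of largest change per comparison; from the other lists, up to 3 called genes of lowest p. The members, lists and rules were chosen with earlier results of these data known. Alternatives tried were 0.1 as pseudocount, no filter, median-ratio scaling, only the groups compared, a replicate block, and each library left out. Promoter windows come from RefSeq on GRCm38.p6. Python 3.11.15, pandas 2.3.3, numpy 2.4.6 and matplotlib 3.10.9 were used for values and figures. Of the marker lists, 1 is not reported here.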

Additional observations from a re-analysis of the deposited data

Results flagged for a closer look

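Single libraries far from the other libraries of their group are given here. Of 228 sets of values of 5 to 7 libraries, 21 held such a library. Chance alone gives about 1 in 20 sets, but only for independent sets of normally distributed values. These sets share libraries, and the class sums hold the same genes, so the 21 cannot be compared with that rate. In CAC at 2 weeks, replicate 4 had the highest Col3a1, with 216.1 TPM where the others had 33.2 to 83.8 TPM, and the highest Col14a1, with 21.7 TPM where the others had 4.26 to 8.59 TPM. In CAC at 4 weeks, replicate 5 had Col3a1 at 93.1 TPM (others 26.5 to 38.0 TPM) and Col14a1 at 11.6 TPM (others 4.99 to 5.75 TPM). In CAC at 6 weeks, replicate 1 had the lowest Col22a1, with 1.20 TPM (others 2.50 to 3.03 TPM), and replicate 5 the lowest basement membrane sum, with 92.5 TPM (others 112 to 120 TPM), which was still above all Con libraries. In CAC at 8 weeks, replicate 6 had Col1a1 at 3.87 TPM (others 29.7 to 46.9 TPM), while its Col4a1 was 50.1 TPM.

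In NCAC at 2 weeks, replicate 3 had Col13a1 at 0.632 TPM (others 0.259 to 0.316 TPM). In NCAC at 4 weeks, replicate 5 was highest in several collagens: Col5a2 was 7.65 TPM (others 4.59 to 4.96 TPM), Col6a1 45.7 TPM (32.8 to 35.2 TPM), Col6a2 25.3 TPM (15.9 to 18.5 TPM), Col6a3 11.4 TPM (7.66 to 8.48 TPM) and the sum of other collagens 141 TPM (94.1 to 106 TPM). In NCAC at 6 weeks, replicate 1 had Col6a2 at 33.4 TPM (others 12.1 to 17.7 TPM). In NCAC at 8 weeks, replicate 3 was lowest: Col5a1 was 2.76 TPM (others at least 10.8 TPM), Col6a1 7.80 TPM (35.1 to 40.3 TPM), Col6a2 2.84 TPM (19.1 to 23.3 TPM), Col6a3 2.75 TPM (9.79 to 11.7 TPM) and the sum of other collagens 31.6 TPM (106 to 133 TPM). In Con, replicate 3 at 6 weeks had Col12a1 at 2.17 TPM (others 0.787 to 0.957 TPM), and replicate 2 at 8 weeks had Col3a1 at 69.6 TPM (others 27.4 to 38.0 TPM).

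The difference of Col22a1 between CAC and Con changed between the weeks by the F test of limma (adjusted p = 0.0331), a call lost without a filter, with only the groups compared and without single libraries at 2 and 8 weeks (adjusted p up to 0.0819). Relative to 2 weeks, the log2 difference moved by -0.35 at 4 weeks, -0.77 at 6 weeks and -0.87 at 8 weeks.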

How the results depend on the processing

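Depth does not limit the abundant chains, while Col28a1 and other collagens near 0.5 TPM rest on few reads (an estimated median of 43.6 per library for Col28a1). No called change of a single collagen reversed. The median log2 change of the 28 collagens in CAC against Con at 8 weeks was -0.17 after median-ratio scaling (0.05 as reported), with 3 collagens higher and 7 lower (9 and 2). Under median-ratio scaling the collagens called were 6 in CAC against Con at 6 weeks (10 as reported), 0, 7 and 4 in CAC against NCAC at 2, 6 and 8 weeks (1, 13 and 12), and the log2 ratios of summed TPM between CAC and Con were 0.57 for basement membrane and -0.35 for other collagens at 6 weeks (0.90 and -0.04) and 0.16 for basement membrane collagens at 8 weeks (0.58). With only the groups compared they were 1 in CAC against Con at 4 weeks (3), 0 and 0 in CAC against NCAC at 2 and 4 weeks (1 and 3), 6 in CAC at 8 against 2 weeks (14) and 0 in the F test of CAC (1). CAC against NCAC at 2 weeks gave 0 with a pseudocount of 0.1 and 0 without a filter, and the F test of CAC gave 0 without a filter. Apart from the rescaled values, the cause was not tested; rescaling removes the shift of all genes by construction. With a replicate block, 6 collagens were called in CAC at 8 against 2 weeks and 0 in the F test of CAC (adjusted p = 0.0542 for Col22a1). Same-numbered mice correlated by -0.30 to 0.29, 0 of 12 comparisons had all pairs over 0.1, and 12 of 60 pairs correlated best with their own number. CAC against Con at 4 weeks had 3 of 5 pairs over 0.1. These values do not establish a source shared by mice of the same number, and so few pairs cannot exclude one.

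Leaving out each library gave 1 to 3 collagens in CAC against Con at 4 weeks, 8 to 10 at 6 weeks and 9 to 13 at 8 weeks, 0 to 4, 0 to 3, 10 to 13 and 9 to 12 in CAC against NCAC at 2, 4, 6 and 8 weeks, 9 to 16 in CAC at 8 against 2 weeks, and 0 to 2 in the F test of CAC. By direction, the counts of CAC against NCAC at 8 weeks ran from 4 to 10 higher and 2 to 5 lower (9 and 3 as reported), those of CAC against Con at 8 weeks from 7 to 9 higher and 1 to 4 lower (9 and 2), and those of CAC at 8 against 2 weeks from 0 to 3 higher and 7 to 15 lower (2 and 12). Of 67 called changes, 63 were kept with a pseudocount of 0.1, 59 without a filter, 36 after rescaling, 45 with only the groups compared and 56 with the block. Without both 8-week libraries of lowest Col1a1, chosen after seeing the data, the total counts moved by less than 1.5 times, while calls lower in CAC at 8 weeks were 1 against Con (2 as reported) and 2 against NCAC (3).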

Other observations

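The chains of a heterotrimer were set against each other within each library. Type I collagen is built of Col1a1 and Col1a2 protein chains, and the ratio of Col1a1 to Col1a2 ran from 0.598 to 1.40 over the 62 libraries. Its medians at 2, 4, 6 and 8 weeks were 1.28, 1.08, 0.998 and 0.989 in CAC, 1.23, 1.21, 1.11 and 1.07 in NCAC, and 1.23, 1.25, 1.02 and 1.11 in Con. The lowest ratio, 0.598, was in CAC at 8 weeks. The ratio of Col6a1 to Col6a2 had medians of 1.94, 2.10, 2.30 and 1.98 in CAC, 1.94, 1.86, 1.81 and 1.83 in NCAC, and 1.98, 1.97, 2.05 and 1.78 in Con. At 6 weeks it ran from 2.17 to 2.40 in CAC, against 1.62 to 1.96 in NCAC and 1.76 to 2.16 in Con, so that CAC lay above both without overlap. These are descriptions with no test.

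Genes of the neuromuscular junction summed to 31.6 to 134 TPM in CAC, against 29.7 to 45.4 TPM in NCAC and 30.4 to 38.9 TPM in Con at 8 weeks. In CAC against Con 1 of 4 rose and 2 fell, where 65.3% of all genes were called higher and 5.55% lower. Col13a1, the collagen of that junction, stayed under 1 TPM in all libraries.

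Among other cell types, the adipocyte markers (Adipoq, Plin1 and Cidec) summed to 65.4 to 229 TPM in CAC and 34.5 to 149 TPM in Con at 8 weeks. Of these markers 1 of 3 rose and 0 fell, where 65.3% of all genes were called higher and 5.55% lower. The satellite cell markers (Pax7 and Myf5) summed to 1.86 to 3.28 TPM in CAC and 1.33 to 2.07 TPM in Con, and 0 of 2 were called. Markers of cartilage and bone summed to at most 1.65 TPM in CAC and 0.894 TPM in Con at 8 weeks, and 0 of the 1 tested was called.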
